A study of Mus musculus with 4 samples.

Results

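The genes described here are those of the interferon response and of antigen presentation, in liver of mice with and without Tm7sf2. They were every gene whose name in the authors' table began with H2-, the mouse major histocompatibility complex, together with 37 listed genes that interferons induce or that load peptides for display. Of the listed genes 35 were found, 2 (Ifit3 and Cd74) were not found under their names, and 24 genes carried an H2- name, which gave 59 members of the 19504 gene names on the array. Each gene was read at its brightest probe set, by the mean of the 4 arrays, and no filter on low values was applied, so all 59 entered the test. The groups were WT and Tm7sf2-KO, each with 2 Affymetrix MOE430 v2 arrays of liver RNA from male mice aged 6 weeks. The WT mice were of the C57Bl/6 strain, and the knockout mice had been backcrossed to that background. Tm7sf2 is a sterol reductase that spans the inner nuclear membrane and the adjoining endoplasmic reticulum. The labels describe hybridization in duplicate and do not say whether the duplicates came from separate animals, so the spread behind the p-values is that between arrays and may be technical alone.

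Interferons are secreted alarm proteins. Their receptors act through JAK kinases on a complex that holds STAT2 and IRF9 and binds a short element, the ISRE, before antiviral genes. Interferon gamma induces IRF1, and with it the genes of antigen presentation. Class I molecules, a heavy chain bound to beta-2 microglobulin, show peptides from inside the cell to CD8 T cells and are made by nearly every cell, hepatocytes included. Class II molecules, an alpha and a beta chain guarded by the invariant chain until they are loaded, show peptides from taken-up material to CD4 T cells. Class II genes are switched on by CIITA, which is recruited to the X and Y boxes of their promoters, and in healthy liver they are known mainly from dendritic cells, B cells, Kupffer cells and endothelium.

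All levels are deposited log2 values, and every change is KO minus WT on that scale with its SE from limma. Genes are said to have risen or fallen only where the limma adjusted p, by Benjamini-Hochberg over the 45037 probe sets tested, was under 0.05 (called 5% FDR, for false discovery rate) and the change was at least 0.5, a 1.41-fold difference. Across probe sets the arrays correlated at 0.994 within each genotype and at 0.990 to 0.991 between genotypes. At its brighter probe set Tm7sf2 was 10.25 and 10.27 in WT and 7.47 and 7.55 in KO, a change of -2.75 that follows the labels. The other Tm7sf2 probe set read 7.46 and 7.49 in WT and 7.50 and 7.54 in KO. All changes are relative to the bulk of genes, since 18 probe sets for added hybridization control transcripts read 0.386 higher in KO. Centring the arrays on these controls, a choice made after seeing the data, shifted the median change of all genes to -0.38 from 0.01.

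Of the 59 members 2 rose in KO liver and 0 fell. Both were class II chain genes, H2-Aa and H2-Eb1. Over all named genes 1.03% passed the same thresholds, 0.543% upwards and 0.487% downwards. At 5% FDR alone the members called were again these 2, against 1.75% of all named genes. An unadjusted limma p under 0.05 was reached by 12 members, 8 of them higher and 4 lower in KO, against 15.2% of named genes (8.39% higher and 6.79% lower). The median change of the members was 0.01, the same as the median of all named genes (0.01). On 20 members both KO arrays lay above both WT arrays, on 13 they lay below, and on 26 the genotypes overlapped, where 43.9% of named genes did not overlap (24% above and 19.9% below). Apart from the class II chains, every member had a change under 0.5 in size, with Oasl1 the lowest at -0.37 and Nlrc5 the highest at 0.34.

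**Figure D1:**
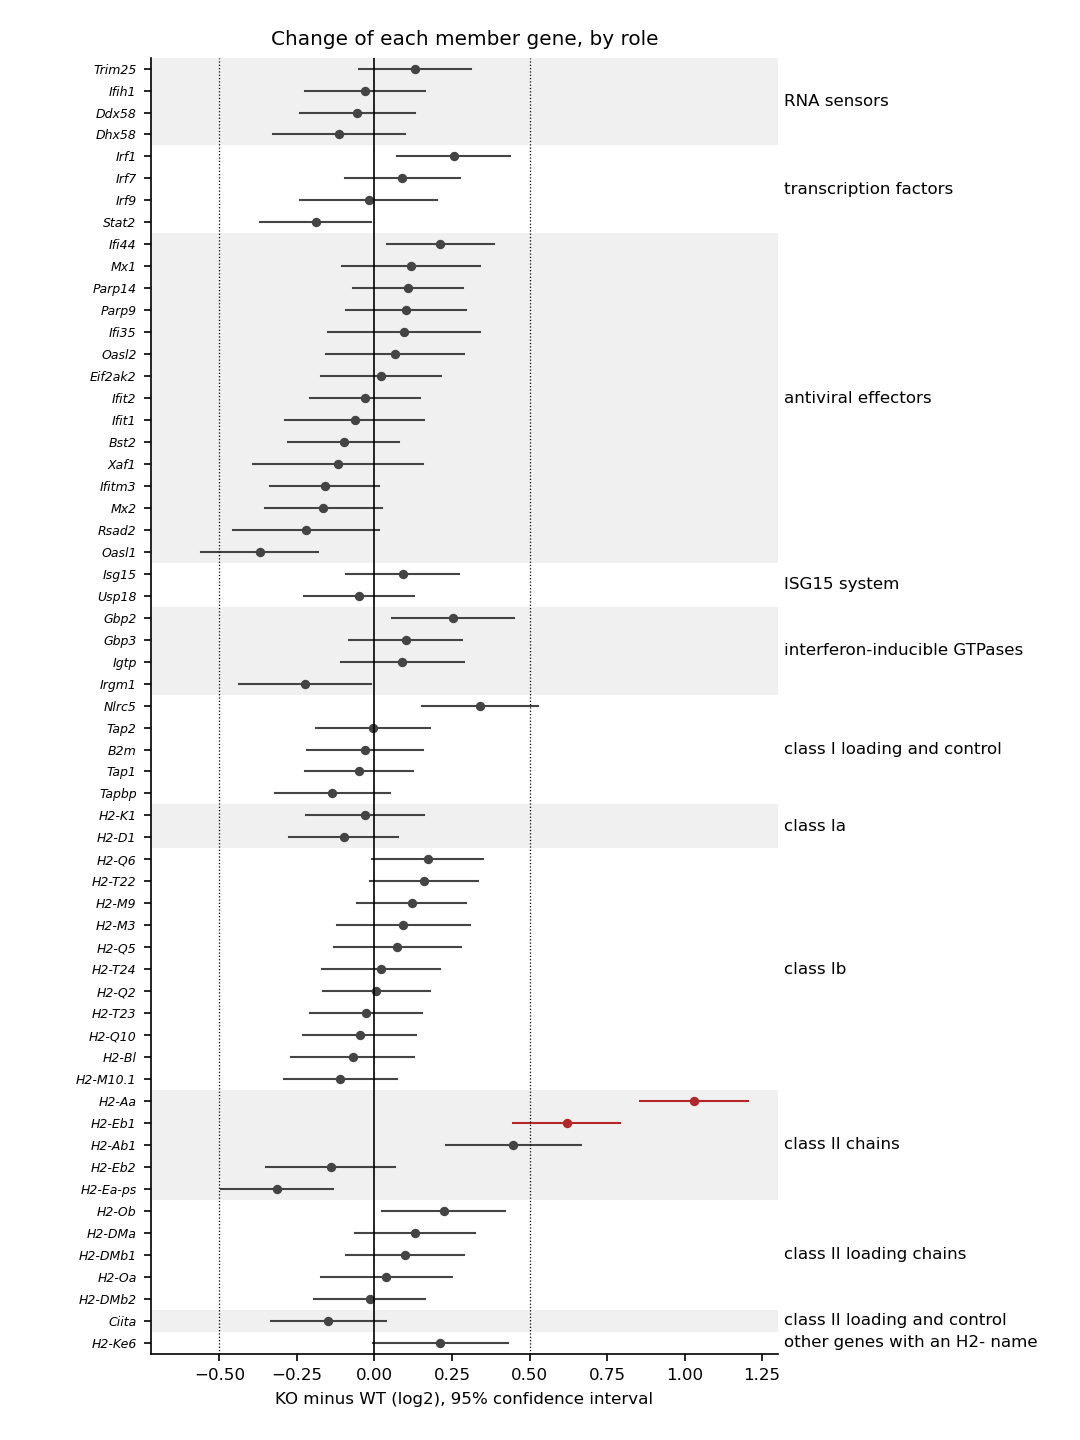
Change of each of the 59 members between Tm7sf2-KO and WT liver (log2, x axis), grouped by role, with points for the estimate and bars for the 95% confidence interval from limma. The dotted lines mark changes of 0.5 in either direction, and the genes that passed both thresholds, H2-Aa at 1.03 and H2-Eb1 at 0.62, are in red.

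**Figure D2:**
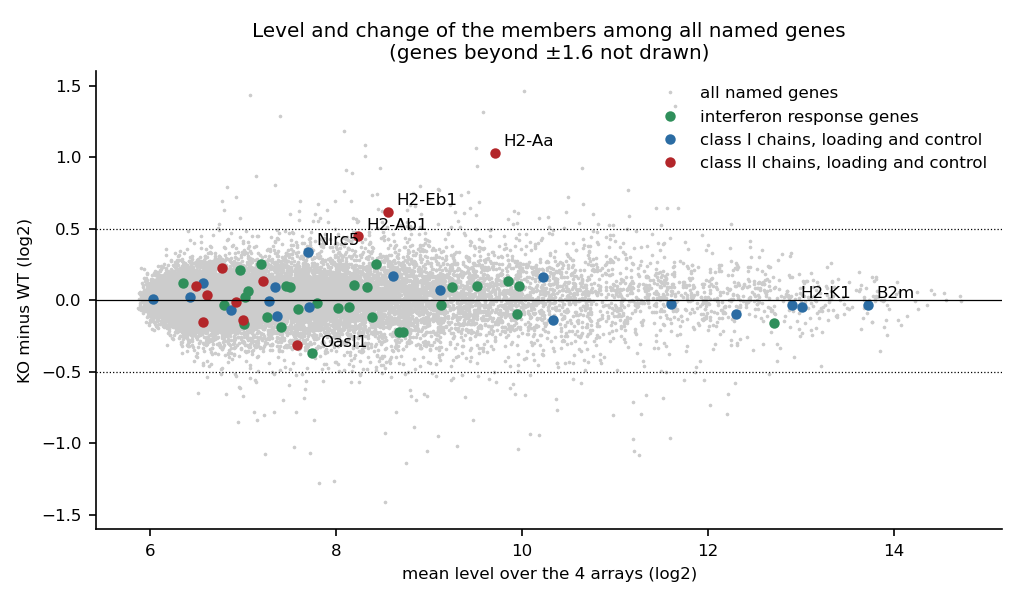
Mean level over the 4 arrays (log2, x axis) against the change KO minus WT (log2, y axis) for all named genes in grey and the members in colour, with 8 named genes beyond changes of 1.6 in size not drawn and dotted lines at 0.5. H2-K1, H2-D1, H2-Q10 and B2m lie near the bright end with changes of -0.10 to -0.03, while H2-Aa, H2-Eb1 and H2-Ab1 stand above the bulk at middle levels.

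The 5 class II chain genes were H2-Aa, H2-Ab1, H2-Eb1, H2-Eb2 and H2-Ea-ps. The promoters of 2 of them, and that of H2-Ob, are shown because they hold, in the 250 bases before the gene's start, letters matching the cores of the X box and the Y box in the order and spacing known for class II genes. The sequences are from RefSeq (GRCm38.p6), each written 5' to 3' along its own gene. Capitals mark the X core (CTNGCAAC, first) and the Y core (GATTGG, second).
H2-Aa, chr17:34287824-34288073, minus strand: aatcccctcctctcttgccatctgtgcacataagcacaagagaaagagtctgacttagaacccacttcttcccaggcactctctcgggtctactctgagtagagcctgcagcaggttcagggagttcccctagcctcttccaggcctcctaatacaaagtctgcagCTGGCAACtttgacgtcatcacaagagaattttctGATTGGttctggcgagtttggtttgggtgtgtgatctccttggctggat
H2-Eb1, chr17:34305617-34305866, plus strand: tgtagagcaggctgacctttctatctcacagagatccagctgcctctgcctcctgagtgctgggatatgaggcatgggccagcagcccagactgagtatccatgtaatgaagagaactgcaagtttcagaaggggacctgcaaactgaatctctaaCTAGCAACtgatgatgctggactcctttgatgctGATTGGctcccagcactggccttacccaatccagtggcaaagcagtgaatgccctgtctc
H2-Ob, chr17:34238655-34238904, plus strand: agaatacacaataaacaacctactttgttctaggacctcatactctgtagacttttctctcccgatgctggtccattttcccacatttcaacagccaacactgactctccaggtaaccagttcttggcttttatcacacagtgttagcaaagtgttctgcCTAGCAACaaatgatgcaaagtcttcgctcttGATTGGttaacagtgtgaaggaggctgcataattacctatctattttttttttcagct
Between the cores lay 27 bases in H2-Aa, 26 in H2-Eb1 and 24 in H2-Ob. The letters of the X core were chosen after these promoters had been read, and each motif was searched on both strands, with the cores of a pair not overlapping. The X core alone stood in 2.84% of the 32851 promoters of this length and the Y core alone in 14.56%, while an X core followed by a Y core after 15 to 35 bases stood in 16 promoters (0.049%). Of the 45 members with a promoter in the table those 3 held the pair. H2-Eb2 held each core but not the pair at that spacing, and H2-Ab1 was not among the promoters used here. A match describes the letters only.

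H2-Aa encodes the alpha chain of I-A, the class II molecule that the C57Bl/6 strain displays. Its level was 9.19 and 9.20 on the WT arrays and 10.25 and 10.21 on the KO arrays. Both KO arrays were thus far above both WT arrays, and the replicates of each genotype lay close together. The change was 1.03 (SE 0.08, 95% confidence interval 0.86 to 1.21, limma adjusted p = 0.000371), a 2.04-fold rise that ranked 14 among the rises of the 19504 named genes. A dimmer H2-Aa probe set read 7.48 and 7.61 in WT against 8.23 and 8.37 in KO, a rise of 0.75 (SE 0.09, adjusted p = 0.00466).

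H2-Eb1, the beta chain of the second class II molecule, I-E, rose as well. It was measured at 8.26 and 8.23 in WT and at 8.86 and 8.88 in KO, again with no overlap and with tight replicates. The change was 0.62 (SE 0.08, 95% confidence interval 0.45 to 0.79, adjusted p = 0.00586), or 1.54-fold, and ranked 58 among the rises.

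H2-Ab1, the beta chain that pairs with the product of H2-Aa, did not pass at its brighter probe set. Its levels there were 7.91 and 8.11 in WT and 8.38 and 8.54 in KO, so the KO arrays were the higher, by 0.45 (SE 0.10, 95% confidence interval 0.23 to 0.67, adjusted p = 0.0683). The dimmer H2-Ab1 probe set read 7.52 and 7.39 in WT and 7.94 and 8.22 in KO, and at that probe set the rise of 0.62 (SE 0.10) passed both thresholds (adjusted p = 0.0264). With the mean of its probe sets in place of the brighter one, H2-Ab1 rose by 0.54 (adjusted p = 0.0351), and the brighter probe set passed 5% FDR alone under a variance trend (adjusted p = 0.0473) and with dim probe sets left out (adjusted p = 0.0408). On all 5 probe sets of H2-Aa, H2-Ab1 and H2-Eb1 the KO arrays were above the WT arrays, where 22.4% of all probe sets showed this. The names of most of these probe sets end in _s_at, _a_at or _x_at, by which the manufacturer marks probes that can match more than a single transcript, so related chains may share part of a signal.

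The remaining class II chain genes did not follow. H2-Eb2, a further beta chain gene, read 7.17 and 6.99 in WT and 6.87 and 7.00 in KO, which overlapped (change -0.14, SE 0.09, adjusted p = 0.583). H2-Ea-ps is the alpha chain gene of I-E, whose expression the C57Bl/6 haplotype has lost, and its brighter probe set read 7.78 and 7.70 in WT against 7.40 and 7.46 in KO. The KO arrays lay below the WT arrays there, but the change of -0.31 (SE 0.08, adjusted p = 0.119) did not pass, and at its other probe set the genotypes overlapped (change -0.03).

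With an array left out, the spread comes from the genotype that keeps both of its arrays, and the lone array is assumed to vary alike. No call held at 5% FDR in these fits, that of Tm7sf2 included. H2-Aa and H2-Eb1 then had adjusted p-values of 0.610 without WT replicate 1, 0.662 without WT replicate 2, 0.556 with the first and 0.518 with the second KO array left out, while their changes were 1.01 to 1.05 and 0.60 to 0.64. Centred on the hybridization controls, H2-Aa still rose, by 0.65, whereas H2-Eb1 had a change of 0.23 (adjusted p = 0.0284) and H2-Ab1 of 0.06 (adjusted p = 0.548).

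The invariant chain, the product of Cd74, was not found by name. The authors' table holds a probe set named Mir5107, a microRNA gene that lies within Cd74 in the RefSeq gene table, and its signal may be that of either transcript. It was singled out after its values were seen and is not counted among the members. It read 9.04 and 8.92 in WT and 9.56 and 9.43 in KO, a rise of 0.51 (SE 0.09, adjusted p = 0.0272) with no overlap. Ctss, the protease cathepsin S that removes the invariant chain, stood at 9.16 on each WT array and at 9.74 and 9.50 in KO, and its change of 0.46 (SE 0.09, adjusted p = 0.0591) did not pass.

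**Figure D3:**
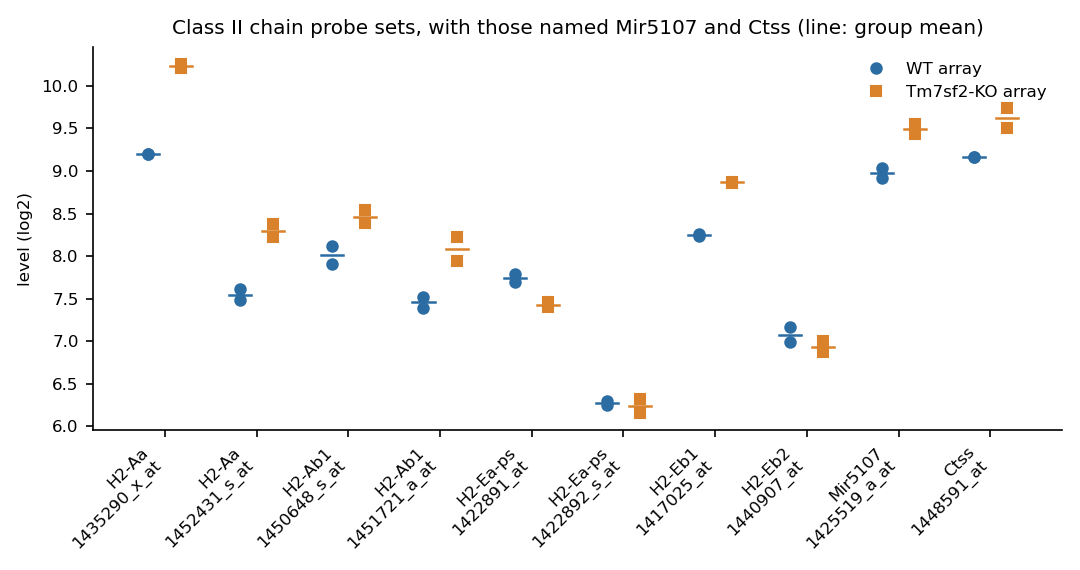
Level (log2, y axis) of every probe set of the class II chain genes and of the probe sets named Mir5107 and Ctss on the 2 WT arrays (blue circles) and the 2 Tm7sf2-KO arrays (orange squares), with lines at the group means. All probe sets of H2-Aa, H2-Ab1 and H2-Eb1, and those named Mir5107 and Ctss, are higher on both KO arrays, while those of H2-Ea-ps and H2-Eb2 are lower or overlap.

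The 5 chains that load class II molecules had mean levels of 6.50 to 7.21, close to the median of 6.66 over all probe sets (H2-DMb1 and H2-Oa below it), and 0 passed. H2-Ob, the beta chain of the inhibitor H2-O, had the largest change of them. It read 6.76 and 6.57 in WT and 6.89 and 6.90 in KO, a change of 0.22 (SE 0.09, adjusted p = 0.318) although the genotypes did not overlap. H2-DMa, the alpha chain of the peptide exchanger H2-M, was at 7.07 and 7.23 in WT and 7.26 and 7.30 in KO (change 0.13, SE 0.09, adjusted p = 0.585). The beta chains H2-DMb1 and H2-DMb2 had changes of 0.10 and -0.02, and H2-Oa, the partner of H2-Ob, of 0.04. Of the 5 only H2-Ob reached an unadjusted p under 0.05. Ciita, the class II coactivator, was read at 6.60 and 6.69 in WT and 6.55 and 6.45 in KO, near the bottom of the scale (change -0.15, SE 0.08, adjusted p = 0.506). Under centring on the controls, H2-Ob and H2-DMa turned to -0.16 and -0.25, and Ciita passed both thresholds at -0.54 (adjusted p = 0.000126).

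In the RefSeq order of genes the members that rose are neighbours. H2-Ab1, H2-Aa and H2-Eb1 follow each other, between H2-Ob on one side and H2-Eb2 and H2-Ea-ps on the other. All 15 genes from H2-Oa to H2-Ea-ps were measured, and their median change was 0.13. Among them Psmb8 and Psmb9, subunits of the immunoproteasome that cuts peptides for class I, had changes of 0.13 and 0.24, and Tap1 and Tap2, the peptide transporter, of -0.05 and -0.00. From H2-K1 to H2-M2 the table lists 237 genes, of which 129 were measured, 2 rose and 0 fell, with a median change of -0.02. Outside the class II genes the highest change along this stretch was that of Ubd, a ubiquitin-like modifier that interferon gamma induces, which passed 5% FDR but not the fold threshold (change 0.49, SE 0.08, adjusted p = 0.0266). The build behind the array's gene annotation is not stated in the sources used, and this order is that of GRCm38.p6.

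**Figure D4:**
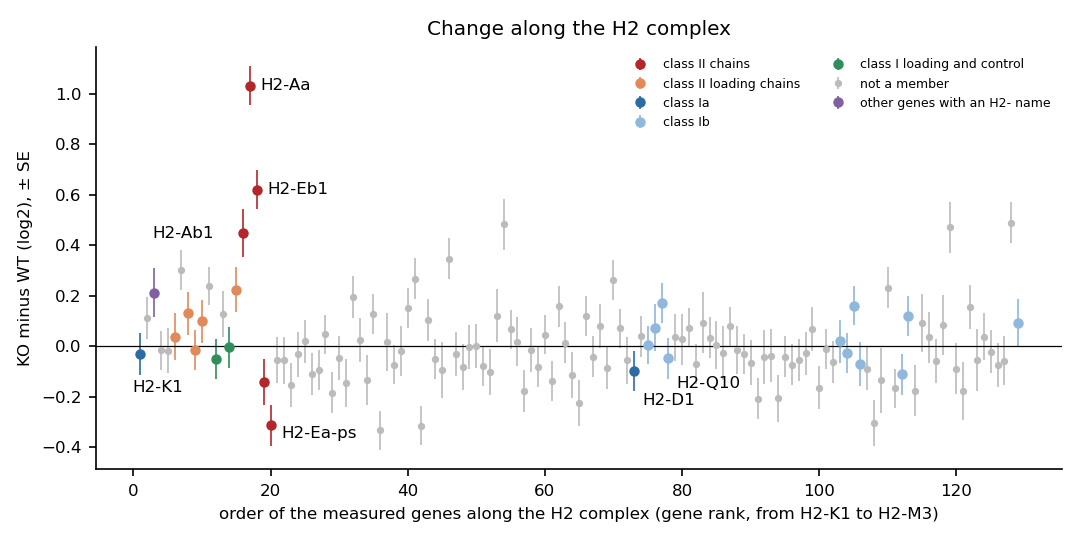
Change KO minus WT (log2, y axis) of the 129 measured genes of the H2 complex in their RefSeq order (x axis, gene rank), as points with bars of 1 SE, coloured by role. H2-Ab1, H2-Aa and H2-Eb1 form a run of neighbouring high values, while H2-D1 and the class Ib genes further along lie between -0.11 and 0.17.

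Of the 13 class I chain genes 0 passed. Their levels spanned most of the scale, from H2-Q2, H2-T24 and H2-M9 below the median of all probe sets to H2-D1, H2-K1 and H2-Q10 at means of 12.30 to 13.02. H2-K1 and H2-D1 are the classical class Ia heavy chains of this strain. H2-K1 was at 13.00 and 12.85 in WT and 12.91 and 12.87 in KO, which overlapped (change -0.03, SE 0.08, 95% confidence interval -0.22 to 0.16, adjusted p = 0.925). H2-D1 read 12.38 and 12.32 in WT and 12.24 and 12.27 in KO, slightly lower in KO (change -0.10, SE 0.08, 95% confidence interval -0.27 to 0.08, adjusted p = 0.668). Further probe sets of these genes had changes of -0.11 for H2-K1 and of -0.08 and -0.02 for H2-D1.

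The 11 class Ib genes, which are less polymorphic relatives of the heavy chains, had a median change of 0.02 and a range of -0.11 to 0.17. None reached an unadjusted p under 0.05. H2-Q10, a secreted class Ib chain made by the liver, was the brightest, at 13.02 and 13.06 in WT and 12.94 and 13.05 in KO (change -0.05, SE 0.08, adjusted p = 0.872). H2-Q6 had the largest change, with 8.56 and 8.49 in WT and 8.67 and 8.72 in KO (0.17, SE 0.08, adjusted p = 0.406), but its dimmer probe set went the other way (-0.08). H2-T23, the counterpart of human HLA-E that presents leader peptides to NK cell receptors, read 11.57 and 11.67 in WT and 11.61 and 11.58 in KO. The genes of this family are near copies of each other, and their probe sets may read several of them.

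The partners and loaders of class I did not pass either (0 of 5, with Nlrc5 alone at an unadjusted p under 0.05). B2m, the light chain shared by all class I molecules, was the brightest member of all, at 13.78 and 13.69 in WT and 13.76 and 13.65 in KO (change -0.03, SE 0.08, adjusted p = 0.925). Tapbp, the tapasin that bridges the transporter and the heavy chain, had a change of -0.14 (SE 0.08, adjusted p = 0.553). Nlrc5, the coactivator of class I genes and a relative of CIITA, differed most. It was measured at 7.55 and 7.51 in WT and 7.80 and 7.94 in KO, with KO above WT, and the change of 0.34 (SE 0.08, 95% confidence interval 0.15 to 0.53, adjusted p = 0.104) missed the threshold. Summed on the linear scale over the brightest probe sets, the 13 class I chain genes read 27057 to 27610 in WT and 26504 to 26883 in KO, whereas the 5 class II chain genes read 1499 to 1502 in WT and 2304 to 2328 in KO. The KO class I sums thus lay just below the WT sums, and the KO class II sums well above them. H2-Ke6, an H2- name that belongs to the dehydrogenase Hsd17b8 rather than to a presenting chain, read 8.89 and 9.06 in WT and 9.28 and 9.09 in KO (change 0.21, SE 0.10, adjusted p = 0.400).

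Of the 4 genes that sense viral RNA and the 4 transcription factors 0 passed, and Irf1 and Stat2 reached an unadjusted p under 0.05. Ifih1, Ddx58 and Dhx58, the helicases MDA5, RIG-I and LGP2, had changes of -0.03, -0.06 and -0.11, with overlapping arrays in each. Trim25, the ubiquitin ligase that activates RIG-I, read 9.79 and 9.78 in WT and 9.86 and 9.97 in KO (change 0.13, SE 0.08, adjusted p = 0.560), but its other probe sets had changes of -0.17 and -0.03. Among the transcription factors, Irf1 was at 8.29 and 8.33 in WT and 8.61 and 8.51 in KO, higher on both KO arrays by 0.26 (SE 0.08, adjusted p = 0.209). Stat2 went the other way, with 7.50 and 7.52 in WT and 7.37 and 7.27 in KO (change -0.19, SE 0.08, adjusted p = 0.357) and a change of -0.24 at its other probe set. Irf7, the amplifier of type I interferon, had a change of 0.09 and Irf9 of -0.02.

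The 15 antiviral effector genes had a median change of -0.03, and 0 passed, while Oasl1 and Ifi44 reached an unadjusted p under 0.05. Oasl1, which in mouse represses translation of Irf7 mRNA, had the smallest adjusted p of the listed genes. It was read at 7.88 and 7.98 in WT and 7.50 and 7.61 in KO, lower on both KO arrays, with a change of -0.37 (SE 0.08, 95% confidence interval -0.56 to -0.18, adjusted p = 0.0812). It passed 5% FDR where probe sets with dim means were left out of the fit (adjusted p = 0.0499), and both thresholds where the arrays were centred on the controls (-0.76). Rsad2, the antiviral enzyme viperin, lay lower in KO at each of its 3 probe sets (changes -0.22, -0.24 and -0.26). Its brightest read 8.69 and 8.90 in WT and 8.68 and 8.46 in KO (SE 0.10, adjusted p = 0.423). Ifitm3, a membrane protein that hinders virus entry and the brightest of the effectors, was at 12.77 and 12.81 in WT and 12.65 and 12.60 in KO (change -0.16, SE 0.08, adjusted p = 0.436). Ifi44 had the highest change, 0.21, with 6.87 and 6.86 in WT and 7.09 and 7.07 in KO (adjusted p = 0.274). Ifit1 and Ifit2, which bind viral RNA or halt its translation, had changes of -0.06 and -0.03 with overlapping arrays, and Mx1, a dynamin-like GTPase, was dim (6.28 and 6.31 in WT, 6.28 and 6.55 in KO). Ifit3b, a close copy of the Ifit3 that was not found and no member itself, had a change of -0.13 (adjusted p = 0.760).

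Isg15, an interferon-induced ubiquitin-like protein that becomes attached to other proteins, read 7.42 and 7.50 in WT and 7.51 and 7.59 in KO (change 0.09, SE 0.08, adjusted p = 0.712). Usp18, which removes it and dampens the receptor, read 8.13 and 8.20 in WT and 8.13 and 8.10 in KO (change -0.05, SE 0.08, adjusted p = 0.857). The 4 interferon-inducible GTPases split in sign, and 0 passed. Gbp2, a guanylate-binding protein, was at 6.99 and 7.14 in WT and 7.38 and 7.26 in KO, higher on both KO arrays (change 0.25, SE 0.09, adjusted p = 0.251). Irgm1, a regulator of this GTPase family, was at 8.96 and 8.72 in WT and 8.62 and 8.61 in KO, lower on both (change -0.23, SE 0.09, adjusted p = 0.355). Igtp, the brightest of the 4, read 9.11 and 9.29 in WT and 9.27 and 9.32 in KO, which overlapped. Centred on the controls, 27 of the 30 members with a positive change had a negative one, Irf1, Gbp2, Isg15, Igtp, Nlrc5 and Trim25 among them, and H2-Aa, H2-Eb1 and H2-Ab1 did not. Centring lowers every gene in KO by 0.386, so it turns any smaller positive change, in members and other genes alike. The share of all genes that turned was not counted.

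The ISRE, searched as GAAA, any 2 bases and GAAA again on both strands in the 250 bases before the start, stood in 2.977% of all promoters and in 12 of the 45 members with a promoter in the table. Those 12 were B2m, Bst2, Gbp2, Gbp3, H2-T22, H2-T23, Ifit1, Igtp, Irgm1, Isg15, Rsad2 and Stat2. Their median change was -0.03 (range -0.23 to 0.25), beside 0.02 (range -0.37 to 1.03) in the 33 without these letters, and H2-Aa and H2-Eb1 were among the latter.

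A wider list of 100 interferon and antigen presentation genes that are not members was counted as well, of which 89 were found. Of these 0 passed both thresholds, and 1 passed 5% FDR. That gene was Calr, calreticulin, a chaperone of class I assembly and of endoplasmic reticulum folding, at 12.95 and 12.96 in WT and 12.49 and 12.57 in KO (change -0.42, SE 0.08, adjusted p = 0.0400). Its other probe sets had changes of -0.40 and -0.14, neither past the threshold. Pdia3, a thiol oxidoreductase of the same folding and loading step, read 11.77 on each WT array and 11.46 and 11.32 in KO (change -0.38, SE 0.08, adjusted p = 0.0723). An unadjusted p under 0.05 was reached by 10 of the 89 genes with higher and by 13 with lower levels in KO, beside 8.39% and 6.79% of all named genes.

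Among the interferon targets of this list, Lgals3bp, a secreted galectin-binding glycoprotein, was at 9.48 and 9.53 in WT and 9.15 and 9.09 in KO (change -0.39, SE 0.08, adjusted p = 0.0542). Gbp7, a guanylate-binding protein, was at 7.69 and 7.90 in WT and 8.18 and 8.33 in KO (change 0.46, SE 0.10, adjusted p = 0.0627), and at its dimmer probe set it rose by 0.53 (SE 0.08, adjusted p = 0.0139). The 40 target genes had a median change of -0.07, with 28 of them negative, beside a median of 0.01 and 9278 negative of the 19504 named genes. Psmb10, an immunoproteasome subunit, had a change of 0.34 (SE 0.08, adjusted p = 0.0873). The 9 receptors and kinases had changes of -0.24 to 0.11 with a median of 0.00, and 0 of them passed. Ifnar1, Ifnar2 and Jak1 were among the flat ones, at -0.01, 0.00 and 0.00. An unadjusted limma p under 0.05 was reached by 1 of the 9, lower in KO, beside 6.79% of all named genes. The 5 interferon genes measured were dim, with means of 6.18 to 6.95, and Ifng, Ifnb1 and Ifna1 had changes of 0.02, 0.06 and 0.01. Larger were Ifna4 at 0.29 (limma adjusted p = 0.245), higher on both KO arrays, and Ifna2 at -0.25 (adjusted p = 0.509), which overlapped.

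Bulk liver RNA holds all of the organ's cells, and more class II cells cannot be told apart from more class II RNA per cell. Listed markers of cells that carry class II, chosen with earlier results of these data known, were summed on the linear scale for each array. Of 5 dendritic cell markers 4 were measured (Flt3, Xcr1, Cd209a and Itgax), 3 of them below the median of all probe sets, and their sum was 407 to 417 in WT and 408 to 415 in KO. The 5 B cell markers, led by Ighm, summed to 643 to 691 in WT and 657 to 694 in KO. The 8 Kupffer cell and macrophage markers, among them Clec4f, Cd5l and Csf1r, summed to 5254 to 5258 in WT and 5120 to 5284 in KO, and the 6 endothelial markers to 2236 to 2287 and 2227 to 2244. In each of these lists 0 markers rose or fell, beside 1.03% of all named genes, and the sums of the genotypes overlapped. The part of these cells in the class II rise was not tested. The sums hide single markers that went opposite ways. Dendritic cell markers ranged from -0.19 (Flt3) to 0.18 (Cd209a) and B cell markers from -0.03 (Ighm) to 0.12 (Cd79a). Kupffer cell and macrophage markers ranged from -0.15 (Clec4f) to 0.13 (Adgre1), and endothelial markers from -0.37 (Lyve1) to 0.18 (Stab2). Lyve1, Flt3, Clec4f, Vsig4 and Pecam1 were lower on both KO arrays, and Csf1r, Stab2 and Cd79b were higher on both. Among all named genes 43.9% did not overlap between the genotypes. The limma adjusted p was 0.149 for Lyve1 and 0.381 for Flt3.

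The sums of 4 other marker lists did not overlap between the genotypes. Among single named genes 43.9% did not overlap. In 1 of the 4 lists a marker passed. S100a8, a calcium-binding protein of neutrophils, fell by 0.67 (SE 0.08, adjusted p = 0.00449), from 7.32 and 7.35 in WT to 6.64 and 6.70 in KO. S100a9, its partner, had a change of -0.28 (adjusted p = 0.164). Together they summed to 317 to 323 in WT and 228 to 236 in KO, with 2 of the 4 listed markers measured. The 6 hepatocyte markers, which were bright on each array of this tissue labelled liver, summed to 93578 to 94174 in WT and 96444 to 98205 in KO, the 4 biliary markers to 859 to 895 and 954 to 962, both higher in KO. The 3 erythroid markers measured summed to 1074 to 1105 in WT and 1002 to 1030 in KO, lower in KO. In these 3 lists 0 markers rose or fell, and the part of these 4 differences in the class II rise was not tested.

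**Figure D5:**
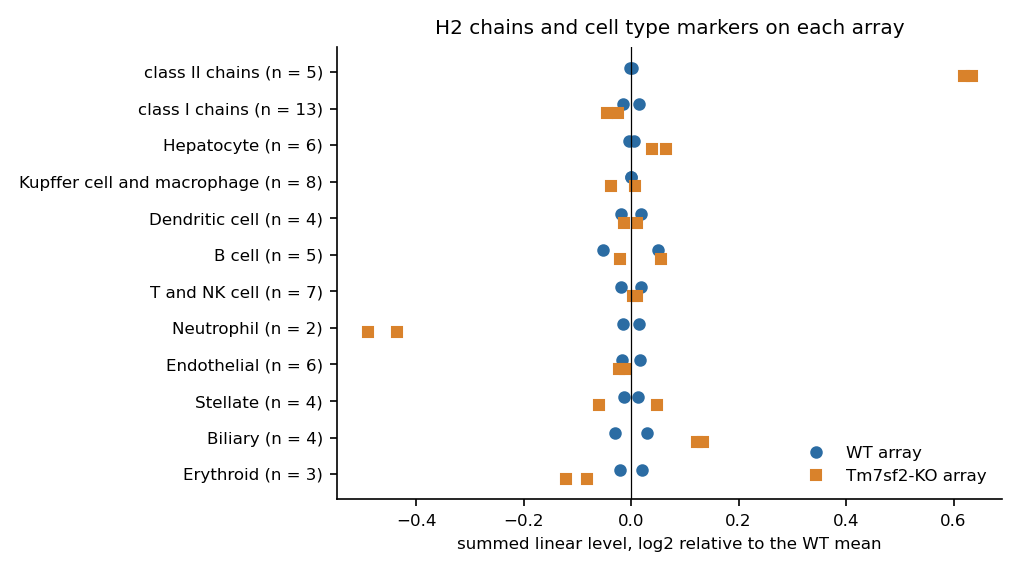
Summed linear level of the class II and class I chain genes and of 10 lists of cell type markers on each array (x axis, log2 relative to the WT mean), with blue circles for WT, orange squares for Tm7sf2-KO and the number of genes measured beside each name. The class II chains stand 0.62 and 0.63 above the WT mean on the KO arrays, and the dendritic, B and Kupffer cell sums lie close to it.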

How the data were processed

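Total liver RNA was hybridized to 1-colour arrays, 2 per genotype, grouped by the genotype in the labels. The authors deposited log2 values, 1 for each probe set and array, that they had quantile-normalized. No source used here gives the background correction, the probe summary or the versions of affy and limma, the tools in the submitters' processing notes. The authors also deposited their own comparison, a log2 ratio of KO over WT and a column of adjusted p-values, and neither was used. Gene names came from that table (33418 of 45037 probe sets, 64 control probe sets being left out).

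The genotypes were compared by limma 3.58.1 (R 4.3.3; lmFit, then eBayes, two-sided, no covariate, 2 residual and 7.30 prior degrees of freedom), tested on simulated data. No exact permutation test was used, since 4 arrays allow none below p = 0.333. The arrays give no counts, and their number limits the precision. Member genes, gene lists and the rule for named genes (members past 5% FDR, and in each role the largest change, smallest adjusted p and brightest member, with 4 array values) were chosen with earlier results of these data known. Mir5107 and Ubd, and some members and list genes, were named outside it after their values were seen. RefSeq tables of GRCm38.p6 gave gene order and promoters. Alternatives were a variance trend, renormalization, a replicate block, a filter on dim probe sets, probe set means, each array left out and centring on controls.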

Additional observations from a re-analysis of the deposited data

Results flagged for a closer look

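Hybridization control transcripts, spiked into each hybridization and used in none of the comparisons, did not read alike on the arrays. The mean of their 18 probe sets was 9.97 and 10.05 on the WT arrays and 10.39 and 10.40 on the KO arrays, higher in KO by 0.386 (log2). The genotypes did not overlap in this measure, and its part in the changes of the interferon and H2 genes was not tested. Centring the arrays on the controls gives the changes that hold if the controls are taken as the reference.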

How the results depend on the processing

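The 2 members past both thresholds stayed 2 under a variance trend, a second quantile normalization, a replicate block and the removal of dim probe sets, and became 3, with H2-Ab1 added (0.54), under the mean of all probe sets. At 5% FDR alone the variance trend gave 3 members, with H2-Ab1 (adjusted p = 0.0473), and the removal of dim probe sets gave 4, with H2-Ab1 (adjusted p = 0.0408) and Oasl1 (adjusted p = 0.0499). The share of all genes past 5% FDR alone was not counted under these settings, so these counts have no background beside them. All probe sets past both thresholds numbered 318, and 305 to 330 under these alternatives other than the mean of all probe sets. Under that mean the genes past both thresholds were not counted over all genes. With the replicate block 2 members and 305 probe sets passed. Same-numbered arrays did not deviate together (correlation -0.0368). With 2 arrays per genotype this cannot show whether the numbers mark a batch or a pair. With 1 array left out the counts of members past both thresholds, of members past 5% FDR and of probe sets were 0 in each case, and 3326 to 4217 probe sets had an unadjusted p under 0.05. The median change of the members was -0.00 to 0.02 there. Small changes turned in sign for B2m (-0.089 to 0.028), H2-K1 (-0.11 to 0.044) and H2-Q10 (-0.10 to 0.0062), and for Trim25 under the mean of its probe sets (-0.025).

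Centring on the hybridization controls, added after seeing the data, moved most values, because it lowers every gene in KO by the same amount. Past both thresholds it gave 7152 of the 45037 probe sets, 25 higher and 7127 lower in KO, with 13 members and 27 of the other pathway genes. At 5% FDR alone 52 members passed, and the member median was -0.38, beside -0.38 for all genes. The share of all genes past 5% FDR alone was not counted here, so the 52 is not a result about the members. An unadjusted limma p under 0.05 was reached by 52 members and by 41209 of the 45037 probe sets. Of the 30 members with a positive change 27 turned negative, and the share of all genes that turned was not counted. Among the 21 members run singly these were Gbp2 (-0.13), H2-DMa (-0.25), H2-Ke6 (-0.17), H2-Ob (-0.16), H2-Q6 (-0.21), Igtp (-0.30), Irf1 (-0.13), Isg15 (-0.29), Nlrc5 (-0.046) and Trim25 (-0.25). The limits are the number of arrays, the unknown origin of the duplicates and the low signal of the loading chains, the interferons and the dendritic cell markers.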
